A study of Mus musculus with 12 samples.

Results

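The HIN-200 genes form a cluster on mouse chromosome 1 and encode proteins that bind DNA through a C-terminal HIN domain, most of them with an N-terminal pyrin domain for contacts with other proteins. The 5 genes described here, Mndal, Ifi203, Ifi204, Ifi207 and Aim2, were picked by symbol from the 15672 genes of the deposited expression table, with their difference between YSGr and SG tumours already known. That difference is therefore given below as a description with no test. The 8 other genes of the cluster in the table are described beside them.

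The libraries are bulk RNA-seq of mouse tumour tissue labelled MB at end point, sequenced on BGISEQ-500. The labels give 4 groups of 3 libraries each. YSGr males (libraries 7 to 9) and YSGr females (10 to 12) are of genotype fYap1;fSMO-M2;hGFAPcre, called rescued in the series' own text, and SG males (1 to 3) and SG females (4 to 6) are of genotype fSMO-M2;hGFAPcre. All 12 libraries thus share the SMO-M2 allele, an active form of the hedgehog pathway protein Smoothened, and a Cre recombinase driven by the human GFAP promoter, and the YSGr mice carry the floxed Yap1 allele in addition. The labels give neither strain nor age, and nothing in them says that each library is a separate mouse, so the p-values speak only of how much these libraries vary, and that variation may be technical. Values are the deposited log2 CPM, in which CPM is a gene's read count scaled by the size of its library. Each library holds 8854765 to 9478650 estimated reads, 1 read is worth 0.1003 to 0.111 CPM, and a gene with no reads stands at -2.24. Yap1, the floxed gene, averaged 0.83 ± 0.77 log2 CPM in YSGr and 4.48 ± 0.18 in SG (SD, n = 6 each), and no YSGr library reached the lowest SG library. All 12 markers of cerebellar granule cell progenitors, the cells that hedgehog-driven medulloblastoma resembles, were measured above the filter on low values.

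HIN-200 genes are known as interferon-inducible. Type I interferons signal through JAK kinases to a complex of transcription factors that includes STAT2 and IRF9 and binds a promoter element built of GAAA repeats, the interferon-stimulated response element. Within the family, AIM2 senses double-stranded DNA in the cytosol and nucleates an inflammasome with the adaptor ASC (gene Pycard) and caspase-1, while mouse IFI204 senses DNA and signals through STING. MNDAL and IFI203 are mainly nuclear members of the family, and IFI207 is a further pyrin and HIN domain protein. The gene content of the cluster differs between inbred mouse strains. Since the labels give no strain, it could not be checked whether YSGr and SG mice share a strain background, and the part of background in the differences below was not tested.

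The promoters of 3 members carry the same 10 bases close to the transcription start. The lines below show 60 bases around these letters, in capitals, for those 3 members. Ifi206, Ifi208, Ifi213 and Ifi214 also hold the exact 10 bases of the members and are not printed. The neighbours Ifi211 and Ifi205 are shown for comparison, with the letters GAAATTGAAA in capitals. The printed lines are aligned on their capitals, not on the transcription start. They are from RefSeq on build GRCm38.p6, all on the minus strand and written 5′ to 3′, at chr1:173880189-173880248 (Mndal), chr1:173942493-173942552 (Ifi203), chr1:173741816-173741875 (Ifi207), chr1:173913049-173913108 (Ifi211) and chr1:174031855-174031914 (Ifi205).
Mndal: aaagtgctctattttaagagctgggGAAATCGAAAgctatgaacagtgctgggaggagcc
Ifi203: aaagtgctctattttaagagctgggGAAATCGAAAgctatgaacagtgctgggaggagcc
Ifi207: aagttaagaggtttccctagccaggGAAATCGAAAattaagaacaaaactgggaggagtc
Ifi211: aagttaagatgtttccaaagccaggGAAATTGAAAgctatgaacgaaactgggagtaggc
Ifi205: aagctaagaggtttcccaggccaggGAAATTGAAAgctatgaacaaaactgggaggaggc

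The Mndal and Ifi203 stretches are the same in 60 of 60 bases. Ifi207 shares 39 of 60 bases with Mndal, 50 of 60 with Ifi211 and 52 of 60 with Ifi205. The first base of the match lies at -36 from the start in Mndal, -35 in Ifi203 and -41 in Ifi207. That of the printed match lies at -37 in Ifi211 and, farther away, at -134 in Ifi205. The search used RefSeq windows from 250 bases before to 50 after each start, both strands, and the letters GAAANNGAAA, of which the 10 bases above are one case. These letters were in 1131 of 32851 promoter windows (3.44%), which belong to 1079 of 27025 genes (3.99%). They were in windows of Mndal, Ifi203 and Ifi207 but not of Aim2 (3 of the 4 members matched to the promoter table, which left Ifi204 unmatched). They were also in 6 of 8 other genes of the cluster and in 12 of 18 genes of a list of interferon targets. The exact letters GAAATCGAAA, chosen after the sequences were seen, were in 16 of 32851 windows, of which 7 belong to the cluster. A second Mndal window, at another listed start, holds the looser letters GAAANNGAAA on the opposite strand, but not the exact 10 bases. Of the 2 Ifi203 windows only 1 holds the looser letters. The letters TTCNNNGAA, typical of interferon-gamma activated sites and reading the same on both strands, were in 8.30% of all windows and in 0 of 6 windows of the members. A match describes the letters of a window and does not show binding.

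Along the chromosome, in the mm10 build, the cluster runs from 173350879 (the start of Aim2, plus strand) to 174031810 (the end of Ifi205, minus strand) in the GENCODE M21 annotation. Ifi207 (173723427 to 173741747) and Ifi204 (173747293 to 173766943) are neighbours on the minus strand. Mndal (173849126 to 173942491) is also on the minus strand and its annotated span covers Ifi211 and overlaps Ifi203 (173920407 to 173942672). The exons of Mndal and Ifi203 share 37 bases, which is 1.02% of Mndal exon bases and 0.552% of those of Ifi203. Of all 100-base words of the annotated transcripts, other genes hold 6.38% of those of Mndal, 2.84% of those of Ifi203, 10.7% of those of Ifi204, 0.79% of those of Ifi207 and 0% of those of Aim2. Of all 50-base words the shares were larger: 19.6% for Mndal, 12.2% for Ifi203, 20% for Ifi204, 7.29% for Ifi207 and 0.628% for Aim2. Reads from such stretches could be assigned to either gene. For Ifi211 the share is 56.9% of 100-base words and 72.8% of 50-base words, so its values are uncertain.

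Mndal had the widest range of the 5 members. It stood at 4.74, -0.07 and 4.82 log2 CPM in YSGr males and 5.31, 4.73 and 6.37 in YSGr females, against -0.94, -1.21 and -1.66 in SG males and -0.96, -1.22 and -1.22 in SG females. All YSGr libraries lie above all SG libraries, but YSGr male 8 lies close to the SG range while the other 5 are far above it. In reads, YSGr libraries 7 to 12 held 264, 7, 270, 375, 252 and 741 Mndal reads, and no SG library held more than 3. Mean CPM was 147-fold higher in YSGr than in SG, a ratio that rests on 13 SG reads in all, and 176-fold higher without YSGr male 8.

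Ifi203, the neighbour whose promoter stretch matches that of Mndal, followed the same order of libraries at the extremes. It stood at 3.63, 1.16 and 4.16 log2 CPM in YSGr males and 4.54, 3.97 and 5.29 in YSGr females, against -0.46, -0.02 and -0.25 in SG males and -0.29, -0.63 and -0.03 in SG females. YSGr male 8 was again the lowest and YSGr female 12 the highest, and the groups do not overlap. Mean CPM was 29.3-fold higher in YSGr than in SG. The number of Mndal reads for each Ifi203 read was 1.59 to 2.18 in 5 YSGr libraries and 0.368 in YSGr male 8, against 0.167 to 0.6 in the SG libraries.

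**Figure D1:**
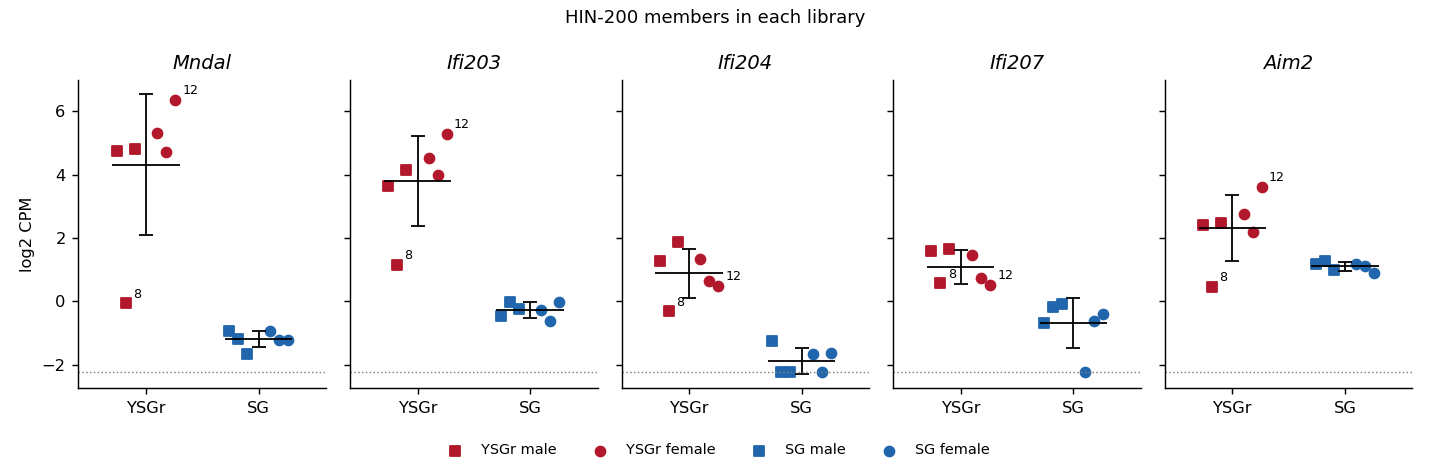
Deposited log2 CPM of the 5 members, 1 point per library, squares for males and circles for females, with the mean and SD of each genotype (n = 6 each) in black and the value of a gene with no reads as a dotted line. YSGr male 8 and YSGr female 12 are numbered: male 8 is the lowest YSGr library for Mndal, Ifi203, Ifi204 and Aim2, and female 12 is the highest for Mndal, Ifi203 and Aim2 but the lowest for Ifi207.

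Aim2, the inflammasome sensor, was the only member of the 5 above 0 log2 CPM in SG tumours. It stood at 2.41, 0.46 and 2.48 log2 CPM in YSGr males and 2.75, 2.20 and 3.62 in YSGr females, against 1.18, 1.28 and 1.00 in SG males and 1.16, 1.12 and 0.89 in SG females. Here the groups overlap: 5 of 6 YSGr libraries lie above the highest SG library, and YSGr male 8, with 11 reads, lies below the lowest SG library. Mean CPM was 2.96-fold higher in YSGr than in SG, and 3.43-fold higher without YSGr male 8.

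Ifi204, the STING-linked DNA sensor, was sparse in both genotypes. It stood at 1.27, -0.31 and 1.88 log2 CPM in YSGr males and 1.34, 0.62 and 0.49 in YSGr females, against -1.26, -2.24 and -2.24 in SG males and -1.68, -2.24 and -1.64 in SG females. The groups do not overlap, and 3 SG libraries held no Ifi204 read. The YSGr libraries held 6 to 34 reads each and the SG libraries 4 in all, so the 26.7-fold higher mean CPM in YSGr has little precision.

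Ifi207 had the smallest spread of the 5 among YSGr libraries. It stood at 1.59, 0.57 and 1.64 log2 CPM in YSGr males and 1.45, 0.74 and 0.52 in YSGr females, against -0.68, -0.19 and -0.08 in SG males and -2.24, -0.63 and -0.40 in SG females. The groups do not overlap, YSGr male 8 is not the lowest YSGr library here, and SG female 4 stands apart from the other SG libraries with 0 reads. Mean CPM was 4.35-fold higher in YSGr than in SG.

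On the log2 scale the difference between YSGr and SG, averaged over the sexes, was 5.51 (SE 0.69) for Mndal, 4.07 (SE 0.43) for Ifi203, 2.77 (SE 0.40) for Ifi204, 1.79 (SE 0.36) for Ifi207 and 1.21 (SE 0.35) for Aim2. The YSGr and SG libraries did not overlap for 4 of the 5 members, beside 2.93% of all tested genes (2.81% of all genes in the table) with YSGr higher, and nothing is read from this count because the difference chose the members. All 5 passed the filter on low values (log2 CPM above 0 in at least 3 libraries), but Mndal, Ifi203, Ifi204 and Ifi207 passed only through their YSGr libraries. In bulk tissue, fewer cells of a type and less RNA per cell cannot be told apart.

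Per kilobase of exon, the order of the members differed between the genotypes. In YSGr, Mndal was highest with a mean level of 9.33 ± 7.41 CPM per kb, followed by Ifi203 (2.72 ± 1.84), Aim2 (1.65 ± 1.02), Ifi207 (0.593 ± 0.232) and Ifi204 (0.520 ± 0.288). In SG, Aim2 was highest with a mean level of 0.557 ± 0.059 CPM per kb, followed by Ifi207 (0.136 ± 0.076), Ifi203 (0.093 ± 0.020), Mndal (0.063 ± 0.020) and Ifi204 (0.020 ± 0.024; SD, n = 6 each). In the YSGr order the ranges of mean ± SD overlap for each pair of neighbours, and in the SG order they overlap for each pair but Aim2 and Ifi207.

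The 8 other genes of the cluster were sparse: none passed the filter. Together the 13 genes of the cluster held 3605 reads in YSGr and 200 in SG, and the 5 members held 96.8% of those in YSGr. Ifi205 had 1 to 3 reads in every YSGr library and 0 in every SG library, which makes its mean CPM at least 4.28-fold higher in YSGr when 3 reads over the SG group are taken as the floor. Ifi202b had 39 reads in YSGr and 7 in SG. Ifi209 had 26 reads in YSGr and 1 in SG, a ratio of 25.6 with a 95% exact counting interval of 4.21 to 1051, and Ifi211 had 20 and 1, a ratio of 19.7 (3.15 to 817). Ifi206 had 8 reads in YSGr and 1 in SG, a ratio of 7.89 (1.06 to 350). Ifi208 and Ifi213 had 4 reads each in YSGr and 0 in SG, and Ifi214 had 0 in YSGr and 2 in SG. These intervals cover counting error only.

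**Figure D2:**
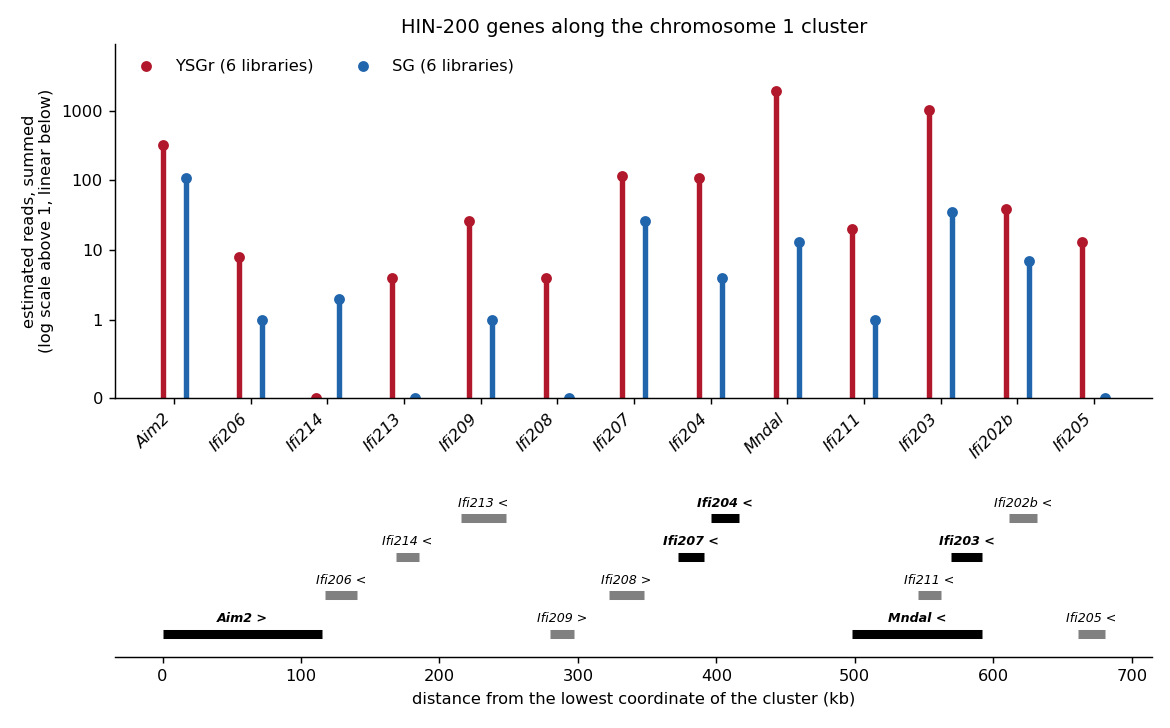
Estimated reads summed over 6 YSGr and 6 SG libraries for the 13 genes of the cluster in their order along the chromosome (upper panel; log scale above 1, linear below), and the genes' positions in kb (lower panel; members in black, arrowheads show the strand). Mndal and Ifi203 hold most reads in YSGr, with 1910 and 1030, while Aim2, with 327 in YSGr and 110 in SG, holds most in SG.

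The 10 nearest tested genes beside the cluster had log2 fold changes between -0.69 and 0.90. Of the 5 nearest tested genes on the Aim2 side, Cadm3, a cell adhesion gene whose span overlaps that of Aim2 on the opposite strand with 0 shared exon bases, was higher in YSGr (log2 fold change 0.61, SE 0.13, limma adjusted p = 0.011), as was Ackr1, an atypical chemokine receptor (0.90, SE 0.24, adjusted p = 0.031). Tagln2, an actin-binding protein gene, was lower (-0.69, adjusted p = 0.015), as was the cell adhesion gene Igsf9 (-0.42, adjusted p = 0.044), and the phosphatase gene Dusp23 did not pass (0.37, adjusted p = 0.41). On the Ifi205 side only Rgs7, a regulator of G protein signalling, passed (0.57, adjusted p = 0.038). The formin Fmn2 (0.49), the fumarase gene Fh1 (-0.04) and Opn3 (0.16) did not. Genes called higher in YSGr were 6.16% of all tested genes and genes called lower were 5.27%.

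Sex was not used to choose the members, so differences between females and males could be tested. In YSGr, Mndal was higher in females by 2.30 on the log2 scale (SE 0.97), with means of 5.47 ± 0.83 in females and 3.16 ± 2.80 in males (SD, n = 3 each), and limma gave an unadjusted p = 0.034 and an adjusted p = 0.24. Ifi203 was higher by 1.62 (SE 0.61, adjusted p = 0.21) and Aim2 by 1.07 (SE 0.49, adjusted p = 0.27), while Ifi204 differed by -0.13 (SE 0.56, adjusted p = 0.92) and Ifi207 by -0.36 (SE 0.51, adjusted p = 0.73). Thus 0 of 5 members passed the threshold of 0.05, beside 0.0778% of all tested genes, and 3 of 5 had an unadjusted p below 0.05, as 18.1% of all tested genes did. The 3 differences rest in part on YSGr male 8: without it they were 0.69 for Mndal (SE 0.41), 0.71 for Ifi203 (SE 0.38) and 0.41 for Aim2 (SE 0.36), with adjusted p-values of 0.63, 0.58 and 0.77.

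In SG 4 of the members rest on 0 to 7 reads per library, so these tests could show little. Female minus male differences were 0.14 for Mndal, -0.07 for Ifi203, 0.06 for Ifi204, -0.77 for Ifi207 and -0.10 for Aim2, and the limma adjusted p was 0.98 or more for each. No member passed (0 of 5, beside 0.0353% of all tested genes) and 0 of 5 had an unadjusted p below 0.05, as 1.83% of all tested genes did. The Ifi207 difference includes SG female 4 with its 0 reads. The difference of the YSGr effect between females and males was 2.16 for Mndal (SE 1.38, adjusted p = 0.50), 1.69 for Ifi203 (SE 0.86, adjusted p = 0.44), -0.19 for Ifi204 (SE 0.79), 0.41 for Ifi207 (SE 0.73) and 1.17 for Aim2 (SE 0.69, adjusted p = 0.48). Again 0 of 5 members passed, beside 0.00707% of all tested genes, and 0 of 5 had an unadjusted p below 0.05, as 11.6% of all tested genes did.

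Within the 6 YSGr libraries Mndal, Ifi203 and Aim2 varied closely with one another: Mndal and Aim2 had the same rank order of libraries (Pearson's r = 0.975, exact permutation p = 0.0014, adjusted p = 0.042; Spearman's rho = 1, p = 0.0028, adjusted p = 0.094). Mndal and Ifi203 had r = 0.986 (exact permutation p = 0.0028, adjusted p = 0.042; rho = 0.943, p = 0.017, adjusted p = 0.094). Their annotated spans overlap and they share some sequence, and the part of shared reads in this r was not tested. Ifi203 and Aim2 had r = 0.983 (exact permutation p = 0.0042, adjusted p = 0.042; rho = 0.943, p = 0.017, adjusted p = 0.094). All tests are two-sided and adjusted over 45 relations, and none of the rank correlations passed 0.05 after adjustment. Without YSGr male 8 and YSGr female 12, the farthest from the median, the 3 values of r over 4 libraries were 0.896, 0.862 and 0.705 in the order given.

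Ifi204 and Ifi207 had r = 0.896 with each other, which did not pass after adjustment (exact permutation p = 0.024, adjusted p = 0.088; rho = 0.886, p = 0.033, adjusted p = 0.14) and r = 0.983 over 4 libraries without YSGr males 8 and 9. The number of Ifi207 reads for each Ifi204 read stayed between 0.832 and 2.14 in the YSGr libraries, while that of Mndal reads for each Ifi204 read ran from 1.25 in male 8 to 69.0 in female 12. Between these 2 genes and the other 3 r was 0.202 to 0.627 (exact permutation p = 0.20 or more for each, rho = -0.143 to 0.371), and the sign depends on single libraries: without male 8 all 6 values were negative (-0.618 to -0.419), and without both male 8 and female 12 all 6 were positive (0.0448 to 0.647). YSGr female 12 had the highest Mndal, Ifi203 and Aim2 of all libraries and the lowest Ifi207 of the YSGr libraries. Ifi204 and Ifi207 rest on 6 to 34 reads per YSGr library, which limits the precision of both genes.

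The members were set beside the levels of cell type markers. The mean log2 CPM of the 12 granule progenitor markers, which include the transcription factor Atoh1 and the hedgehog target Gli1, was lowest in YSGr male 8, at 8.02, and lay between 8.43 and 8.75 in its 5 companions. Across the YSGr libraries Ifi203 had r = 0.961 with this mean (exact permutation p = 0.0056, adjusted p = 0.042; rho = 0.943, p = 0.017, adjusted p = 0.094). Mndal had r = 0.935 (exact permutation p = 0.011, adjusted p = 0.062; rho = 0.886, p = 0.033) and Aim2 r = 0.944 (exact permutation p = 0.012, adjusted p = 0.062; rho = 0.886, p = 0.033), neither of which passed after adjustment. Without YSGr male 8 the 3 values were 0.866, 0.817 and 0.785, and without male 8 and female 10, the farthest from the median, they were 0.987, 0.992 and 0.978 over 4 libraries. Markers of oligodendrocytes, such as the myelin gene Mbp, ran the other way as a list. Their summed level was 8649 CPM in YSGr male 8 and 516 CPM in YSGr female 12. It lay between 907 and 2294 CPM in the remaining YSGr libraries, against 1195 to 2242 CPM in SG. The marker Olig1 varied little in YSGr, from 7.505 to 7.876 log2 CPM. Ifi203 had r = -0.955 with the mean of the list (exact permutation p = 0.0042, adjusted p = 0.042, and rho = -0.943, p = 0.017, adjusted p = 0.094). Mndal had r = -0.916 (exact permutation p = 0.0056, adjusted p = 0.042, and rho = -0.829, p = 0.058). Aim2 had r = -0.961 (exact permutation p = 0.0069, adjusted p = 0.045, and rho = -0.829, p = 0.058). Over 4 libraries without male 8 and female 12 the 3 values were -0.863, -0.916 and -0.644. For Ifi204 and Ifi207 r was -0.336 and 0.0107. The part of tissue makeup in the members' values was not tested.

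None of the relations of the members with interferon genes passed 0.05 after adjustment. The largest was that of Ifi207 with the mean of the interferon signalling list, which includes Stat2 and Irf7: r = 0.952 over the YSGr libraries (exact permutation p = 0.018, adjusted p = 0.074; rho = 0.943, p = 0.017, adjusted p = 0.094) and r = 0.944 over 4 libraries without YSGr male 9 and YSGr female 12. Ifi204 had r = 0.751 with the same mean (exact permutation p = 0.079, adjusted p = 0.24; rho = 0.771, p = 0.10), and 0.733 over the same 4 libraries. For Mndal, Ifi203 and Aim2 r was 0.0016, -0.075 and -0.096 (exact permutation p = 0.87 or more for each, rho = -0.086, -0.257 and -0.086). These 3 values depend on single libraries, since they were 0.432, 0.378 and 0.528 over the same 4 libraries and -0.660, -0.628 and -0.559 without male 8. With the mean of the interferon targets, Ifi207 had r = 0.791 (exact permutation p = 0.051, adjusted p = 0.16; rho = 0.771, p = 0.10) and Mndal r = -0.285 (exact permutation p = 0.68; rho = -0.086, p = 0.92). Without YSGr females 11 and 12, the farthest from the median for the targets, r over 4 libraries was 0.843 for Ifi207 and 0.822 for Mndal, so the value for Mndal turned in sign.

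**Figure D3:**
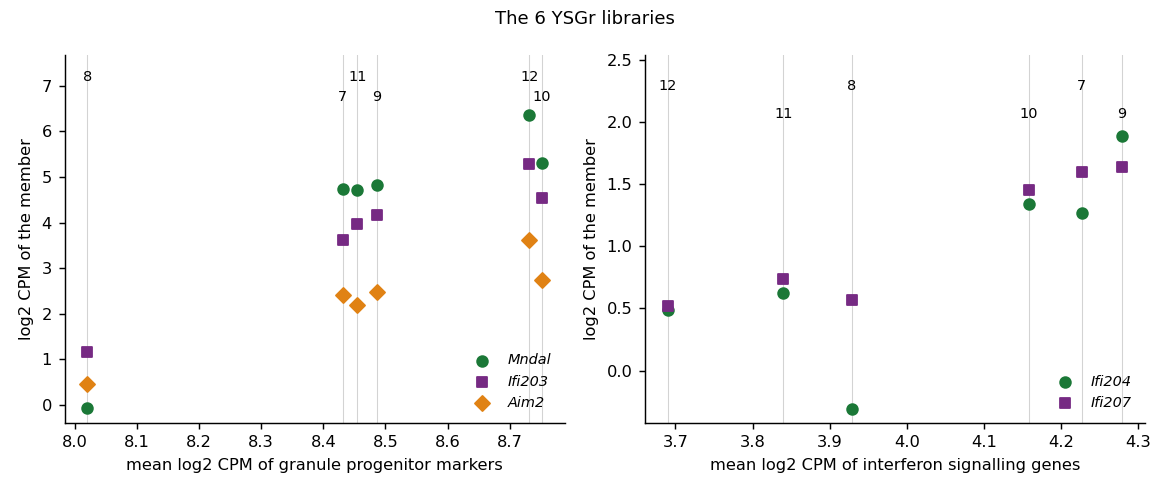
The 6 YSGr libraries, numbered above the points. Left, log2 CPM of Mndal, Ifi203 and Aim2 against the mean log2 CPM of granule progenitor markers, with library 8 lowest on both axes at 8.02; right, log2 CPM of Ifi204 and Ifi207 against the mean log2 CPM of interferon signalling genes, with libraries 7, 9 and 10 highest on both axes.

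Genes most like each member over all 12 libraries, by Pearson's r of log2 CPM after the mean of each genotype was subtracted and among 12852 candidate genes, are given as a description, and YSGr male 8 and YSGr female 12 weigh on them. For Mndal they were Mcm10, a DNA replication factor (0.976) and the neuronal transcription factor gene Neurod6 (0.971). For Ifi203 they were Mcm10 (0.962) and Cdc23, a subunit of the anaphase-promoting complex (0.957), and for Aim2 Neurod6 (0.981), E130114P18Rik (0.975) and Mcm10 (0.969). Mcm10 stood at 4.75 log2 CPM in YSGr male 8 and 6.01 in YSGr female 12, against 5.85 to 6.01 in SG, and its own difference between YSGr and SG was -0.36 (limma adjusted p = 0.16). For Ifi204 they were Zfp438 (0.905), the interferon-inducible GTPase gene Gbp6 (0.825) and Tbl2 (0.820), and for Ifi207 Lrrc51 (0.851), Ccpg1os (0.831) and the caspase gene Casp6 (0.812).

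Over all tested genes 6.16% were called higher in YSGr and 5.27% lower, shares that apply here and to the lists below. Of 12 tested inflammasome genes, a general list not limited to steps downstream of AIM2, 4 were higher in YSGr and 0 lower. The median log2 fold change of this list was 0.21, beside -0.005 over all tested genes. The 4 were the cytokine gene Il1b (2.95, SE 0.36, limma adjusted p = 0.00040), the inflammatory caspase genes Casp4 (2.14, SE 0.27, adjusted p = 0.00040) and Casp1 (1.16, SE 0.28, adjusted p = 0.019) and the sensor gene Nlrc4 (1.01, SE 0.30, adjusted p = 0.044). The count fell to 2 without SG female 4, without YSGr female 10 or with quantile normalization. The count of lower genes was 1 without SG male 2 or YSGr female 12 and 2 with library weights. The adaptor Pycard had 0.13 (adjusted p = 0.62) and the pore-forming Gsdmd -0.20 (adjusted p = 0.42). The cytokine gene Il18 had -0.14 (adjusted p = 0.68), and none of the 3 passed. Il1b and Nlrc4 stood below 0 log2 CPM in every SG library, so they passed the filter only through their YSGr libraries.

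On the STING side, 2 of 10 tested genes were higher in YSGr and 0 lower, with a median of -0.01. They were the nucleic acid sensor Zbp1 (1.90, SE 0.49, limma adjusted p = 0.024) and the kinase gene Ikbke (1.00, SE 0.27, adjusted p = 0.031). This count depends on single libraries: it was 0 without SG female 5, without YSGr male 7 or without YSGr female 10, and 1 without any of SG males 2 and 3, SG females 4 and 6, YSGr males 8 and 9 and YSGr female 11. The count of lower genes was 1 without YSGr male 9 or with library weights. The DNA sensor Cgas had -0.34 (adjusted p = 0.25) and Tmem173, which encodes STING, 0.40 (adjusted p = 0.15). Zbp1 stood below 0 log2 CPM in every SG library, so it passed the filter only through its YSGr libraries.

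The shares to set beside the interferon counts are again 6.16% of all tested genes called higher and 5.27% called lower. Of 15 tested interferon signalling genes 2 were higher in YSGr and 0 lower, with a median of 0.20. They were the transcription factor genes Irf7 (1.70, SE 0.32, limma adjusted p = 0.0053) and Stat2 (0.49, SE 0.11, adjusted p = 0.016), and the count was 1 without SG female 5. With library weights 7 were higher and 2 lower. Irf9 had 0.55 (adjusted p = 0.060) and Irf8 0.37 (adjusted p = 0.079), and the interferon gene Ifng had 0 reads in all libraries. Of 20 tested interferon targets outside the cluster 12 were higher and 0 lower, with a median of 1.07. Those with the lowest adjusted p were Lgals3bp, which encodes a secreted galectin-3 binding protein (1.39, SE 0.15, adjusted p = 0.00018), the antiviral genes Oas1a (2.27, SE 0.39, adjusted p = 0.0028) and Ifit1 (1.90, SE 0.34, adjusted p = 0.0036) and the GTPase gene Gbp2 (1.47, SE 0.30, adjusted p = 0.0075). Among the called targets, Oas1a, Isg15 and Ifi27l2a stood below 0 log2 CPM in every SG library and passed the filter only through their YSGr libraries. The count of 12 higher targets became 8 to 13 when 1 library was left out (8 without SG female 4). It was 9 with quantile normalization and 18 with library weights. The mean of the target list in YSGr libraries 7 to 12 was 2.40, 2.04, 2.22, 2.26, 1.25 and 1.09 log2 CPM, against 0.63 to 0.96 in SG. YSGr female 12, which has the highest Mndal, is the lowest YSGr library for these targets, and YSGr male 8, which has the lowest Mndal, lies among the 4 high ones.

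**Figure D4:**
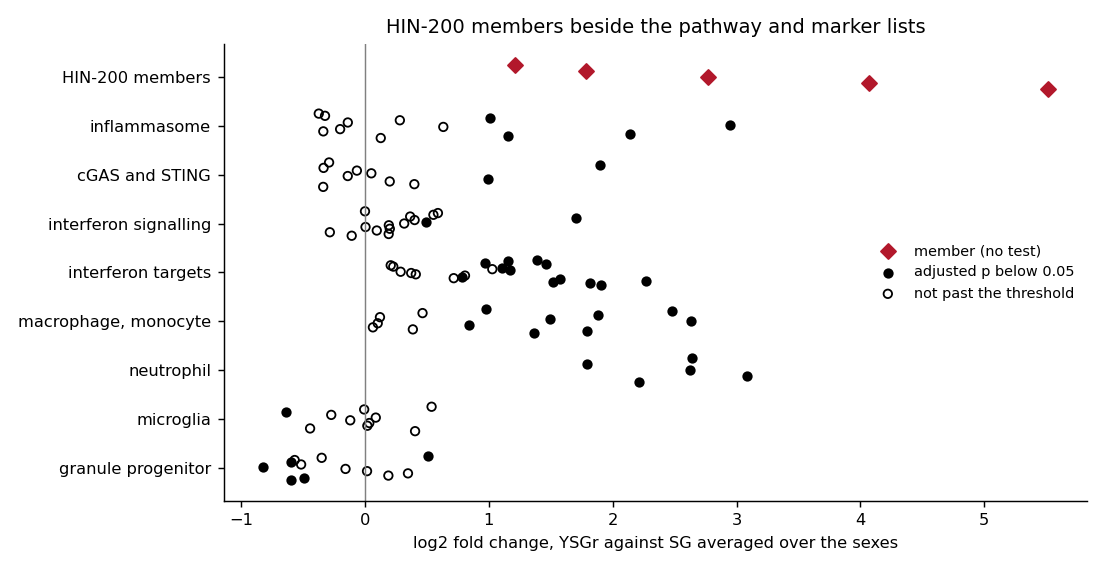
Log2 fold change of YSGr against SG, averaged over the sexes, for the 5 members (diamonds, no test) and for the tested genes of 8 lists (filled where the limma adjusted p is below 0.05). The members run from 1.21 to 5.51, and the median is 1.07 for the interferon targets and 0.21 for the inflammasome genes.

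Markers of immune cells also differed between the genotypes, and their part in the members' values was not tested. Of 13 tested macrophage and monocyte markers 8 were higher in YSGr and 0 lower, among them Ccr2 and Lyz2. Cd68 (log2 fold change 0.39, limma adjusted p = 0.063), Csf1r (0.07, adjusted p = 0.73), Adgre1 (0.10, adjusted p = 0.59), Mrc1 (0.12, adjusted p = 0.74) and Fcgr1 (0.47, adjusted p = 0.10) did not pass. The summed level was 478 to 835 CPM in YSGr and 287 to 359 CPM in SG. Lyz2, with 22669 reads in YSGr and 6279 in SG, weighs most on this sum. All 5 tested neutrophil markers, such as S100a9, were higher, with 4.22 to 21.4 CPM in YSGr and 0.665 to 1.31 CPM in SG. These 5 and Ccr2 stood below 0 log2 CPM in every SG library, so they passed the filter only through their YSGr libraries. Nothing is read from the count of 5. Of 10 microglia markers 0 were higher and 1, Gpr34, lower, with 298 to 384 CPM in YSGr and 311 to 367 CPM in SG, and without SG male 2, YSGr male 9 or YSGr female 12 the count of lower markers was 2. Without SG male 2, 1 microglia marker was higher. Of 3 tested dendritic cell markers 2 were higher (24.8 to 53.5 CPM in YSGr, 20.02 to 32.5 CPM in SG), and this count was 0 without SG female 4, SG female 5 or YSGr female 10 and 1 without any of SG males 2 and 3, SG female 6 and YSGr males 8 and 9. The T cell markers Cd3e, Cd3d and Cd3g and the natural killer markers Ncr1, Klrb1c, Gzma and Prf1 held at most 3 reads in any library. Neither the T cell marker Cd4 nor the B cell marker Cd79a, the only ones tested (1 each), passed, and no natural killer marker was tested. Cd4 held 548 reads in YSGr and 332 in SG, against 29 and 22 for the T cell marker Lck. The summed T cell level below therefore rests mostly on Cd4. The summed level was 4.24 to 19.9 CPM in YSGr and 5.38 to 7.54 CPM in SG for T cells, 1.15 to 2.50 CPM in YSGr and 0.737 to 3.25 CPM in SG for B cells, and 0 to 0.903 CPM in YSGr and 0 to 0.109 CPM in SG for natural killer cells. Across the YSGr libraries the macrophage list had r = -0.522 with Mndal (exact permutation p = 0.33; rho = -0.486, p = 0.36) and 0.544 with Ifi207 (exact permutation p = 0.26; rho = 0.429, p = 0.42). Without YSGr male 7 and YSGr female 12 these were -0.692 and -0.020 over 4 libraries. The neutrophil list had r = -0.712 with Mndal (exact permutation p = 0.085, adjusted p = 0.24; rho = -0.943, p = 0.017, adjusted p = 0.094) and r = -0.817 with Aim2 (exact permutation p = 0.015, adjusted p = 0.069; rho = -0.943, p = 0.017, adjusted p = 0.094). Without YSGr females 10 and 12 these were -0.794 and -0.821 over 4 libraries.

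Among the other lists, 1 of 12 granule progenitor markers (Neurod1) was higher and 4 (Gli1, Ccnd1, Atoh1 and Barhl1) lower in YSGr, with 4376 to 7150 CPM in YSGr and 5636 to 6880 CPM in SG. The higher count was 0 when any of SG males 2 and 3, SG females 4 to 6 and YSGr females 10 and 11 was left out, and 2 without YSGr female 12. Of 8 endothelial markers 1 was higher and 3 lower (60.1 to 102 CPM in YSGr, 84.0 to 140 CPM in SG), of 6 astrocyte markers 1, Gfap, was higher and 0 lower (980 to 2300 CPM in YSGr, 1186 to 2046 CPM in SG), and of 5 oligodendrocyte markers 0 were higher and 1, Olig1, lower. Without SG female 6, 0 endothelial markers were higher, and without SG male 2 or YSGr female 11, 1 astrocyte marker was lower.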

How the data were processed

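Bulk RNA-seq of 12 tumour libraries was used. The authors deposited log2 CPM values for 15672 genes. Per the submitters' processing notes they named Trimmomatic 0.33, RSEM 1.2.12, Bowtie2, Picard 1.95, edgeR 3.30.3 and the build mm10; no source used here gives the role of each tool, the annotation or the use of strand. Estimated reads per gene were recovered from the step between values and, in each library, 92.1 to 93.1% of genes came within 0.02 of a whole number. They were used for description only, and 3 reads in 1 library correspond to 0.301 to 0.333 CPM.

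Differences were tested on the deposited log2 values, with no further pseudocount, with limma 3.58.1 in R 4.3.3, with 1 coefficient for each group, a mean-variance trend, two-sided tests and Benjamini-Hochberg adjustment over the 14147 genes with log2 CPM above 0 in at least 3 libraries. The log2 scale understates changes of low genes. Relations across libraries used exact permutation tests. The fit was tested on simulated data. Named genes were the HIN-200 genes, up to 4 genes of each pathway list with the lowest adjusted p, those with a stated role in the pathways, the 5 nearest tested genes on each side of the cluster, the 3 genes most like each member, and markers that describe a list. The members and lists were chosen with earlier results of these data known. The alternatives were 5 other settings and leaving out each of 12 libraries. Recounting the lists under each alternative was chosen after seeing the data. Protein sequences were not used here. A few genes that this rule names are not reported here.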

Additional observations from a re-analysis of the deposited data

Results flagged for a closer look

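Of 10 sets of 6 libraries examined (5 members in each genotype), 2 held a library set far apart from the rest. Chance gives this in about 1 of 20 sets when values are normally distributed and sets are independent. Here the sets share libraries and Ifi207 in SG rests on few reads, so that rate need not hold. Mndal in YSGr male 8 stood at -0.0682 log2 CPM, with a gap of 4.79 to the next YSGr library in a range of 6.43. That library also held the lowest Ifi203, Ifi204 and Aim2 of YSGr and the highest oligodendrocyte markers, and the part of these markers in its Mndal value was not tested. Ifi207 in SG female 4 stood at -2.24 log2 CPM, which is 0 reads, with a gap of 1.56 to the next SG library in a range of 2.17, and the other SG libraries held 4 to 7 reads.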

How the results depend on the processing

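The averaged difference between YSGr and SG of the 5 members kept its direction in all 85 combinations of member and alternative. Nothing is read from this count, because the difference chose the members and 4 of the 5 had no overlap between YSGr and SG libraries. With 1 CPM added before the log, this difference was 1.19 for Ifi204 and 0.93 for Ifi207. Of 255 sex tests of the members 0 passed the threshold (lowest limma adjusted p = 0.11). The count of genes called between YSGr and SG was 1617, with 4986 under library weights and 900 to 2088 when 1 library was left out (900 when this was SG female 6, 919 for SG female 5, 1029 for YSGr female 10). Between the sexes in YSGr it was 11, with 1819 under library weights and 9 to 1026 when 1 library was left out (1026 without YSGr female 11, 24 without SG male 2). Between the sexes in SG it was 5, with 28 under library weights and 5 for each library left out. For the difference of the effects it was 1, with 675 under library weights and 1 to 119 when 1 library was left out (119 without YSGr female 11). The cause of these shifts was not tested.

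Small sex differences turned in sign. Leaving out 1 library gave -0.0552 to 0.3029 for Mndal and -0.2137 to 0.0827 for Ifi203 in SG, -0.10 to 0.39 in SG and -0.76 to 0.34 in YSGr for Ifi204, and for the difference of the effects -0.82 to 0.28 for Ifi204 and -0.17 to 0.75 for Ifi207. Library weights gave 0.0324 for Ifi203 and -0.19 for Ifi204 in SG and 0.0889 for the Ifi204 difference of the effects. Quantile normalization gave 0.24 for Ifi204 and 0.0148 for Ifi207 in YSGr and 0.13 for the Ifi204 difference of the effects, and 1 CPM added gave -0.0011 for the Ifi207 one. No paired analysis was possible because the libraries carry numbers without repeats and nothing in the labels pairs them. About 0.1 CPM per read limits Ifi204, Ifi207 and the other genes of the cluster, whose values in SG rest on 0 to 7 reads per library.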
